A study of Mus musculus with 5 samples.

Results

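The genes described here are 10 secreted or membrane-bound modulators of Wnt signalling that are expressed by the stroma of the temporomandibular joint (TMJ) disc, the sheet of fibrocartilage that separates the condyle of the jaw from the skull. They were taken by symbol from the 27998 genes of the deposited count matrices and comprise the secreted Frizzled-related protein (sFRP) genes Sfrp1, Sfrp2, Sfrp4 and Frzb, the Dickkopf genes Dkk2 and Dkk3, the R-spondin genes Rspo2 and Rspo3, the ligand gene Wnt5a and the receptor gene Fzd9. Their levels were read in the stromal and synovial lining cells of 5 single-cell RNA-seq libraries, 1 per condition, as UMIs (counted transcript molecules) scaled to 1000000 UMIs of the same cell class in the same library (CPM). Of 51688 cells kept, 41621 (80.5%) were stromal and 986 were synovial lining cells. The stromal cells numbered 10857 at 3 d, 7925 at 3 w, 7676 at 16 w, 8362 at 78 w and 6801 in the injured library, and the lining cells 350, 68, 87, 284 and 197 in the same order.

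The labels give all 5 libraries as TMJ discs of wild-type C57BL/6 mice: untreated discs at ages from 3 d over 3 w and 16 w to 78 w, and discs punctured with a needle at 5 weeks and collected 2 weeks later, at 7 weeks. The methods of the study describe the injury in Myh11-CreER; Tm fl/- mice, in which a Cre active in smooth muscle and mural cells marks their progeny with a fluorescent protein. The 3 d suspension mixed male and female pups, whereas the older normal discs came from males, so age and sex cannot be told apart in comparisons with 3 d. No normal library of 7 weeks was at hand, so the injured library was set against both 3 w and 16 w. With 1 library per condition no difference could be tested: every ratio compares 2 libraries, its interval is an exact 95% interval that covers counting error only, and a gene was counted as higher or lower only when its ratio was at least 2-fold and it had at least 100 UMIs over the classes compared.

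Wnt ligands bind Frizzled receptors together with the co-receptors Lrp5 and Lrp6, which stabilises beta-catenin, or act through other co-receptors such as Ror2 without it. The sFRPs carry a Frizzled-like domain that can bind Wnt ligands outside the cell, Dickkopf proteins such as Dkk2 bind Lrp5 and Lrp6, and R-spondins bind Lgr4, Lgr5 and Lgr6 and keep Frizzled receptors at the membrane by holding off the ligases Znrf3 and Rnf43. In skeletal connective tissues these proteins are known for their part in joint formation, in keeping cartilage from ossifying and in bone turnover.

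Before the values, some features of the libraries bear on them. The cells kept held a median of 7721, 12496, 9234 and 9466 UMIs in the normal libraries from youngest to oldest, and 3299 in the injured library, and any pair of libraries shared 19 to 39 cell barcodes. The stroma was made up differently at 3 d. Of the 3 stromal clusters, cluster 3, led by Pi16, C1qtnf3, Sfrp2 and Clec3b, held 41.5% of stromal cells at 3 d and 8.77% to 12.5% in the other libraries, and cluster 1, led by Cytl1, Ibsp and Chad, held 16.9% at 3 d and 59.3% to 69.3% elsewhere. Chad itself read 11.6 CPM in 3 d stroma and 1582 to 3408 CPM in that of the other libraries. The 8 stromal markers summed to between 24793 and 61149 CPM in stromal cells, and the 8 endothelial markers to 10.3 to 32.6 CPM. The 6 cell-cycle markers summed to 352 CPM in 3 d stroma and to 3.20 to 23.6 CPM in the others. The 9 lining markers summed to 7490 CPM in lining cells at 3 d and to between 51676 and 97212 CPM in the other libraries, Prg4 alone reading 1878 CPM against 46385 to 89439 CPM, and without integration of the libraries no 3 d cell fell in the lining cluster. The 7 erythroid markers summed to 3348 CPM in 3 d lining cells and 1417 CPM in injured lining cells, against 0 to 7.47 CPM in the others. In stromal cells the 8 macrophage markers summed to 127 CPM in the injured library and to 13.9 to 25.7 CPM in the normal ones. The part of these differences in the values below was not tested beyond the within-cluster ratios given with them.

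**Figure D1:**
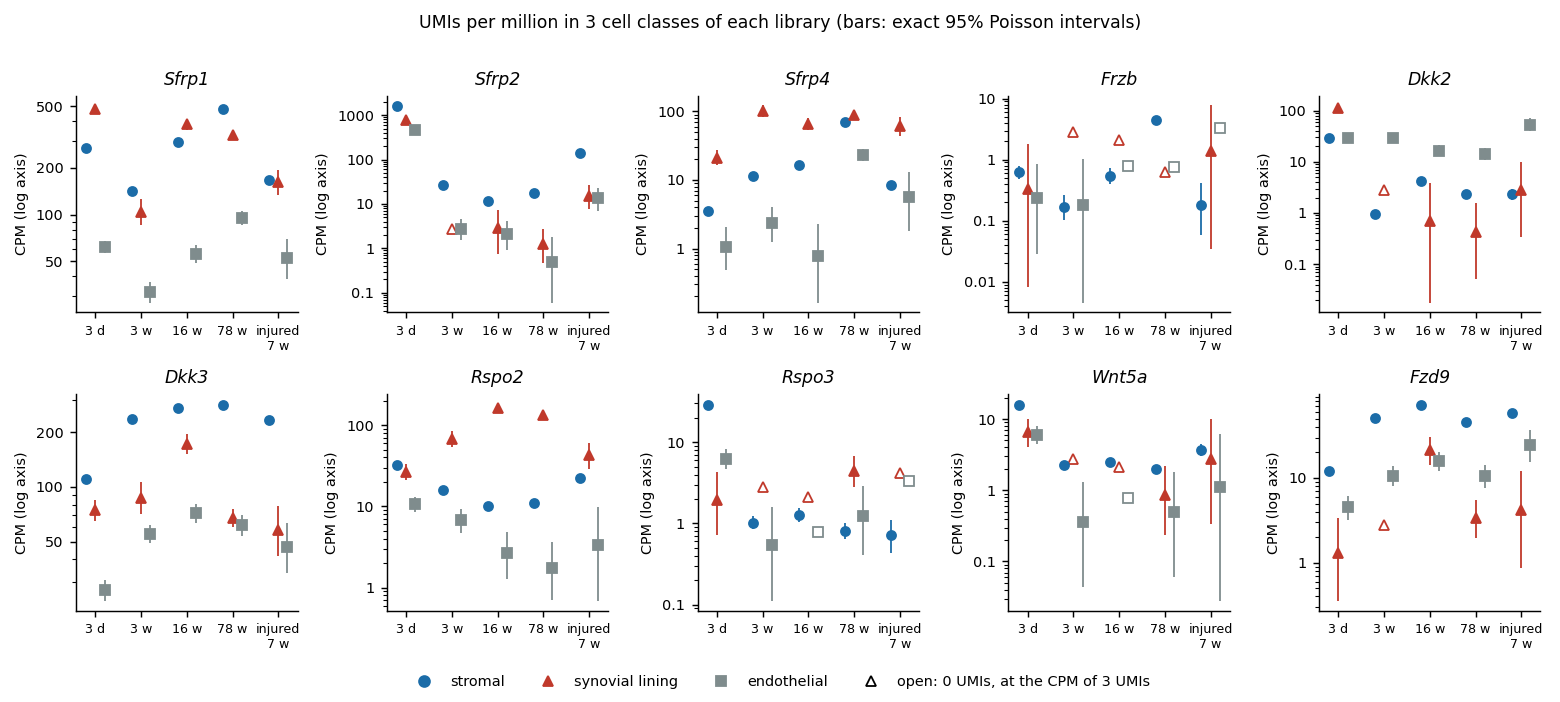
Level of each gene (CPM, log axis) in stromal cells (circles), synovial lining cells (triangles) and endothelial cells (squares) of the 5 libraries, with exact 95% Poisson intervals; open symbols stand for 0 UMIs and are drawn at the CPM that 3 UMIs would give. Stromal Sfrp2 goes from 1644 CPM at 3 d to 26.4 CPM at 3 w, while stromal Sfrp4 is at its highest, 70.5 CPM, at 78 w.

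Sfrp2 was the most abundant of the 10 genes at 3 d and lay below Sfrp1 and Dkk3 in the stroma of every other library. It encodes an sFRP found widely in embryonic mesenchyme. In stromal cells its level was 1644 CPM at 3 d (167839 UMIs), 26.4 CPM at 3 w (2982 UMIs), 11.8 CPM at 16 w (948 UMIs), 17.2 CPM at 78 w (1573 UMIs) and 138 CPM in the injured library (3850 UMIs). The gene stood 62.2-fold lower at 3 w than at 3 d (interval 60.0 to 64.6), another 2.24-fold lower at 16 w (2.08 to 2.41), and at 78 w it was 95.3-fold lower than at 3 d (90.7 to 100.2). The injured library lay between 3 d and the later normal libraries, 5.22 times the 3 w level (4.98 to 5.48) and 11.7 times the 16 w level (10.9 to 12.5).

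The share of cells with a Sfrp2 UMI followed the same order. Cells with at least 1000 UMIs were thinned to 1000 UMIs each, and shallower cells were left out of all thinned shares. Left out were 40 of 10857 stromal cells at 3 d and 294 of 6801 in the injured library. At 3 d, 50.5% of the thinned stromal cells held a Sfrp2 UMI. The share was 1.76%, 0.927% and 1.15% at 3 w, 16 w and 78 w and 5.87% in the injured library. With all UMIs the 5 shares were 84.1%, 7.18%, 3.05%, 3.43% and 10.2%. In endothelial cells, which may carry free RNA, the thinned shares were 21.1% at 3 d, 0.135% at 3 w, 0 at 16 w and 78 w and 1.32% after injury, each below the stromal share of the same library. A single 3 d cell held up to 444 Sfrp2 UMIs. Of the endothelial cells, 166 of 1190 at 3 d and 94 of 398 after injury were left out as too shallow.

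The Sfrp2 gene lies at chr3:83766321-83774316 on the plus strand (GRCm38, GENCODE), and a noncoding antisense gene, Gm26771, overlaps its 3′ end over 464 bases. Its upstream sequence, the 250 bases before the transcription start at chr3:83766071-83766320 (RefSeq, GRCm38.p6, plus strand), is shown because Sfrp2 had the widest range of all 10 genes, and that of Dkk2, the other sFRP or Dickkopf gene that was more than 10-fold lower at 78 w than at 3 d, is given for comparison from chr3:132085042-132085291 on the plus strand. Capitals mark matches on either strand to 3 motifs searched for, the TCF/LEF motif CTTTGA, the TATA box TATAAA and the GC box GGGCGG, of which no matches overlapped.
Sfrp2: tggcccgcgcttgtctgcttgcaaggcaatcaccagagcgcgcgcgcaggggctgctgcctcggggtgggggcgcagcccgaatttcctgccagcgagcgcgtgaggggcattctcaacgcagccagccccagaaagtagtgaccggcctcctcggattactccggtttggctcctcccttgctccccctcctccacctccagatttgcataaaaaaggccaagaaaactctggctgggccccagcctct
Dkk2: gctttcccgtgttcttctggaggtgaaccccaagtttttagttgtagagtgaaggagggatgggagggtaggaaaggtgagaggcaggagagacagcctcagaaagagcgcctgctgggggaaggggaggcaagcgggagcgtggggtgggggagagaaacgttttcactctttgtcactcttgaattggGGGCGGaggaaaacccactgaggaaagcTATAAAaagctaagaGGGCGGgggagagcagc
The Sfrp2 window held 63.6% G and C and 16 CpG dinucleotides and none of the 3 motifs. The Dkk2 window held 55.6% G and C and 7 CpG dinucleotides, with GC boxes starting 60 and 17 bases and a TATA box starting 32 bases before the transcription start. Over the 32851 promoters of the same table the median was 52.4% G and C and 6 CpG dinucleotides, and CTTTGA was present in 13.8%, TATAAA in 12.4% and GGGCGG in 32.7% of windows. Of the 10 genes, 4 had an entry in that table, and those of Frzb and Fzd9 are not shown because they reach into transcribed sequence.

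Sfrp1 encodes the sFRP that was most abundant in the stroma after 3 d, and it lies at chr8:23411502-23449632. Its stromal level was 267 CPM at 3 d (27298 UMIs), 142 CPM at 3 w (15977 UMIs), 292 CPM at 16 w (23410 UMIs), 477 CPM at 78 w (43490 UMIs) and 167 CPM in the injured library (4655 UMIs). The order was thus 3 w, injured, 3 d, 16 w and 78 w, over a 3.37-fold range, and no neighbouring intervals overlapped. Within stromal clusters 1, 2 and 3 the 3 w level was 1.05, 0.76 and 1.14 times that at 3 d, so the low place of 3 w did not hold within each cluster. From 3 w to 16 w the level was 2.06 times higher (2.02 to 2.10), from 16 w to 78 w it was 1.63 times higher, and the injured library was within 2-fold of both 3 w and 16 w (1.18 times and 1.75-fold lower). In thinned stromal cells the share with an Sfrp1 UMI was 19.5%, 11.99%, 21.1%, 30.8% and 13.7% in the 5 libraries, while endothelial cells read 0.192 to 0.313 times the stromal CPM, close to the same ratio for Chad (0.183 to 0.298), a cartilage matrix gene of the stroma.

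Sfrp4, whose loss causes a human skeletal disease with thin cortical bone, was higher at each later normal age. The gene lies at chr13:19623104-19632994. In stromal cells it read 3.53 CPM at 3 d (360 UMIs), 11.5 CPM at 3 w (1301 UMIs), 16.7 CPM at 16 w (1341 UMIs), 70.5 CPM at 78 w (6425 UMIs) and 8.38 CPM in the injured library (234 UMIs). Each normal library was higher than the younger one before it, by 3.27 times from 3 d to 3 w (2.91 to 3.68), by 1.45 times to 16 w and by 4.21 times to 78 w (3.97 to 4.47), and 78 w stood 19.98 times above 3 d (18.0 to 22.3). The injured library was below both of its neighbours in age, at 0.73 times the 3 w level and 0.50 times the 16 w level.

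Frzb, also called sFRP3 and known from articular cartilage, was near the limit of counting in 4 libraries. In stromal cells it had 64 UMIs at 3 d (0.627 CPM, interval 0.483 to 0.801), 19 at 3 w (0.168 CPM), 44 at 16 w (0.549 CPM), 406 at 78 w (4.45 CPM, 4.03 to 4.91) and 5 in the injured library (0.179 CPM). The 78 w level was thus 8.12 times that at 16 w (5.94 to 11.3) and 7.10 times that at 3 d (5.44 to 9.39), and it came from 131 cells, of which 1 held 49 UMIs. The gene lies at chr2:80411970-80447625 on the minus strand.

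The 4 sFRP genes changed places between ages. Transcript molecules are counted here at their 3′ end and so need no scaling to gene length. Of all stromal sFRP UMIs, Sfrp2 made up 85.8% at 3 d but 14.7%, 3.68% and 3.03% in the 3 older normal libraries, and 44.0% in the injured one. Sfrp1 made up 14.0%, 78.8%, 90.9% and 83.8% at the 4 ages and 53.2% after injury, and Sfrp4 reached 12.4% at 78 w. The 4 genes summed to 1916 CPM in stroma at 3 d, 179.6 CPM at 3 w, 321 CPM at 16 w, 569 CPM at 78 w and 313 CPM in the injured library. In lining cells Sfrp2 led at 3 d (61.1%) and Sfrp1 in the other 4 libraries (50.7% to 84.8%), with more Sfrp4 than in stroma, which was 49.3% of their sFRP UMIs at 3 w, 14.6% at 16 w, 21.3% at 78 w and 25.4% after injury. In endothelial cells, which may carry free RNA, Sfrp2 made up 87.9% of sFRP UMIs at 3 d.

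**Figure D2:**
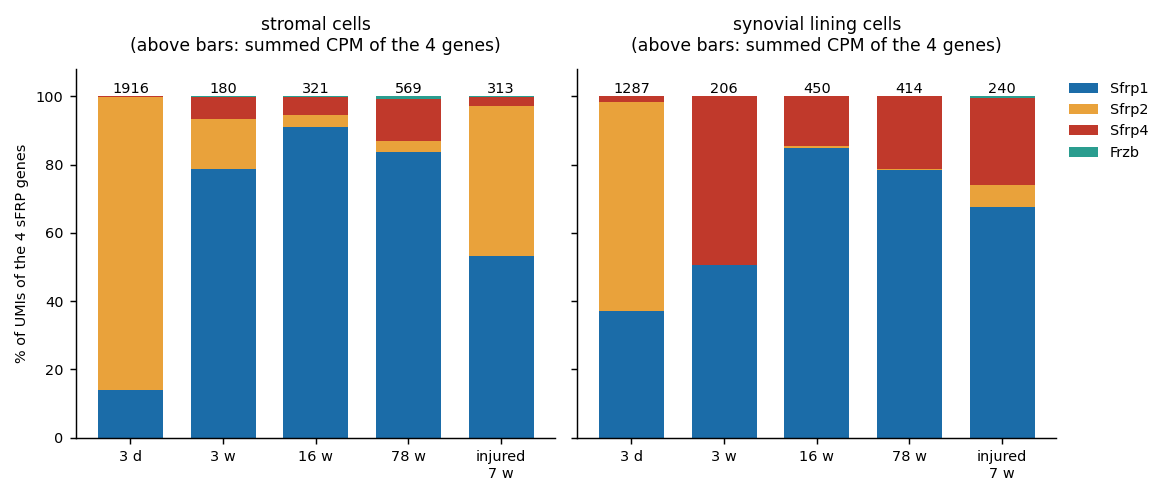
Share of the UMIs of the 4 sFRP genes (percent) that each gene contributed in stromal cells (left) and synovial lining cells (right) of each library; the number above a bar is the summed CPM of the 4 genes. Sfrp2 fills 85.8% of the stromal bar at 3 d and 44.0% in the injured library, and Sfrp1 fills 78.8% to 90.9% in the other stromal bars.

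Counted per cell, 36.1% of thinned stromal cells at 3 d held no UMI of any of the 6 antagonist genes (the 4 sFRPs, Dkk2 and Dkk3), against 68.6% at 3 w, 60.2% at 16 w, 50.8% at 78 w and 65.1% after injury. Cells with 2 or more of the 6 genes made up 17.5% at 3 d and 3.66%, 6.21%, 10.3% and 4.995% in the others. Among lining cells the share without any was 36.1% at 3 d and 51.7% to 82.4% in the other libraries. At 3 d, 50.5% of thinned stromal cells held Sfrp2, and endothelial cells, which may carry free RNA, read 458 CPM of it. The part of free RNA in these shares was not tested.

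Dkk2, an antagonist that binds Lrp5 and Lrp6, lies at chr3:132085292-132180304 behind the upstream sequence printed above. In stromal cells it read 29.5 CPM at 3 d (3008 UMIs), 0.966 CPM at 3 w (109 UMIs), 4.25 CPM at 16 w (341 UMIs), 2.35 CPM at 78 w (214 UMIs) and 2.33 CPM in the injured library (65 UMIs). The 3 w level was 30.5-fold below the 3 d one (25.2 to 37.3), and Dkk2 was 4.403 times higher at 16 w than at 3 w (3.54 to 5.51), and 12.6-fold lower at 78 w than at 3 d (10.9 to 14.5), and the intervals of the 78 w and injured levels overlapped. In every library after 3 d it was higher in endothelial than in stromal cells. Endothelial cells read 28.8, 28.6, 16.6, 14.3 and 53.3 CPM, so that their level was 0.976 times the stromal one at 3 d (0.852 to 1.11) and 29.6 times at 3 w (23.1 to 38.2), 3.90 times at 16 w, 6.07 times at 78 w and 22.9 times in the injured library (15.4 to 33.8). Endothelial cells held 6.56% of a library's Dkk2 UMIs at 3 d and 55.8%, 15.6%, 20.7% and 39.3% in the later 4.

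Dkk3, a divergent Dickkopf family member whose link to Lrp6 is less settled, was the evenest of the 10 genes after 3 d. Its stromal level was 111 CPM at 3 d (11288 UMIs), 235 CPM at 3 w (26536 UMIs), 270 CPM at 16 w (21671 UMIs), 283 CPM at 78 w (25839 UMIs) and 232 CPM in the injured library (6474 UMIs). It was 2.13 times higher at 3 w than at 3 d (2.08 to 2.17) and 2.56 times higher at 78 w (2.51 to 2.62), the steps to 16 w and 78 w were 1.15 and 1.05 times, and the intervals of the 3 w and injured levels overlapped. In thinned stromal cells 10.3% held a Dkk3 UMI at 3 d and 19.5% to 23.5% in the others. The gene lies at chr7:112116017-112159057 on the minus strand.

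Rspo2, which activates Wnt signalling through the Lgr receptors and is needed in limb and craniofacial development, had stromal and lining levels that went apart with age. It lies at chr15:43020794-43170826 on the minus strand. In stromal cells it read 31.95 CPM at 3 d (3262 UMIs), 15.7 CPM at 3 w (1768 UMIs), 10.1 CPM at 16 w (810 UMIs), 11.0 CPM at 78 w (1005 UMIs) and 22.35 CPM in the injured library (624 UMIs). In lining cells it read 26.8 CPM at 3 d (82 UMIs), 67.9 CPM at 3 w (73 UMIs), 161 CPM at 16 w (229 UMIs), 133 CPM at 78 w (623 UMIs) and 43.0 CPM in the injured library (31 UMIs). Stromal Rspo2 was thus highest in the youngest and next highest in the injured library, and lining Rspo2 was highest at 16 w and 78 w. From 3 d to 78 w it was 2.90-fold lower in stroma (2.70 to 3.12) and 4.96 times higher in lining (3.93 to 6.32). The injured stroma read 1.43 times the 3 w level (1.30 to 1.56) and 2.21 times the 16 w level (1.99 to 2.46), and the injured lining 1.58-fold less than 3 w and 3.75-fold less than 16 w (2.57 to 5.65). At 78 w the 284 lining cells held 37.6% of all Rspo2 UMIs of the library.

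Rspo3, a related R-spondin known from vascular and limb development, was mainly a 3 d gene. Its stromal level was 28.7 CPM at 3 d (2932 UMIs) and 1.03 CPM at 3 w (116 UMIs), 1.28 CPM at 16 w (103 UMIs), 0.811 CPM at 78 w (74 UMIs) and 0.716 CPM in the injured library (20 UMIs). The 3 w level was 28.0-fold (23.2 to 33.9) and the 78 w level 35.4-fold (28.1 to 45.2) below that at 3 d, and the 3 w level overlapped with each of the other 3 later libraries within counting error. The gene lies at chr10:29452416-29535867 on the minus strand and overlaps 2 annotated noncoding genes, Gm20276 and Gm48159.

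Wnt5a, a ligand that signals mainly without beta-catenin, had the same order of 3 d above the rest. It read 15.6 CPM in stromal cells at 3 d (1596 UMIs), 2.25 CPM at 3 w (254 UMIs), 2.47 CPM at 16 w (198 UMIs), 1.98 CPM at 78 w (181 UMIs) and 3.69 CPM in the injured library (103 UMIs, interval 3.01 to 4.48). Of the 3 later normal libraries, 3 w overlapped with both others within counting error and 78 w read 1.24-fold below 16 w (1.01 to 1.53), and 78 w was 7.88-fold lower than 3 d (6.75 to 9.24). The injured level was 1.64 times that at 3 w (1.29 to 2.07) and 1.495 times that at 16 w (1.17 to 1.91). The gene lies at chr14:28504750-28527448 and overlaps the antisense gene Gm2670.

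Fzd9, the only Frizzled receptor among the 10 and one known from osteoblasts, lies at chr5:135248938-135251230 on the minus strand. Its stromal level was 11.99 CPM at 3 d (1224 UMIs), 51.1 CPM at 3 w (5773 UMIs), 73.4 CPM at 16 w (5890 UMIs), 45.99 CPM at 78 w (4194 UMIs) and 58.9 CPM in the injured library (1644 UMIs). It was 4.27 times higher at 3 w than at 3 d (4.01 to 4.54), peaked at 16 w, and was still 3.835 times above 3 d at 78 w (3.60 to 4.09). The injured library lay between 3 w and 16 w, 1.15 times the former and 0.80 times the latter.

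Counted together, 3 of the 9 genes with enough UMIs were at least 2-fold higher in stroma at 3 w than at 3 d (Sfrp4, Dkk3 and Fzd9) and 5 were lower (Sfrp2, Dkk2, Rspo2, Rspo3 and Wnt5a), while over the 13510 genes tested the shares were 16.0% higher and 19.0% lower. From 3 w to 16 w, Sfrp1 and Dkk2 were higher and Sfrp2 lower, beside 5.54% and 5.81% of all genes. From 16 w to 78 w, Sfrp4 and Frzb were higher and none was lower, beside 2.18% and 1.47%. Across the whole span from 3 d to 78 w, 4 of 10 were higher (Sfrp4, Frzb, Dkk3 and Fzd9) and 5 lower (Sfrp2, Dkk2, Rspo2, Rspo3 and Wnt5a), beside 14.2% and 21.1%. Frzb entered the counts with 78 w only through its 406 UMIs there, against 64 at 3 d and 44 at 16 w. The median log2 ratio of the genes counted was -1.03 for 3 w against 3 d (all genes -0.05), 0.32 for 16 w against 3 w (all genes -0.09), 0.10 for 78 w against 16 w (all genes -0.06) and -0.35 for 78 w against 3 d (all genes -0.17). In the injured library Sfrp2 was higher than in both 3 w and 16 w, beside 3.77% of all genes, and none of the 9 was lower, beside 8.04%. These comparisons share libraries, the 3 w and 16 w ones above all, and so do not count separately.

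Because the stroma was made up differently at 3 d, the ratio of 78 w to 3 d was also taken within each of the 3 stromal clusters, which were drawn without the Wnt genes as features. Sfrp2 was lower in all 3, by 486-fold in cluster 1, 17.1-fold in cluster 2 (led by Coch, Spp1 and Kera) and 33.3-fold in cluster 3. At 3 d it read 652, 742 and 2652 CPM in these clusters and 458 CPM in endothelial cells, which may carry free RNA. The endothelial level was 917-fold lower at 78 w, from 3858 to 2 UMIs. The part of free RNA in the Sfrp2 ratios, that of cluster 1 above all, was not tested. Stromal Chad, a leading gene of cluster 1, read 11.6 CPM at 3 d and 2099 CPM at 78 w. How alike the cells of each of the 3 clusters were at both ages was not tested either. Sfrp4 was higher in all 3, by 11.8, 79.3 and 69.7 times, so that its 19.98 times over the whole stroma was below the values in clusters 2 and 3. Rspo3 was lower in all 3, by 23.2-, 21.01- and 11.96-fold, with 24, 20 and 30 UMIs at 78 w. In cluster 1 it read 8.51 CPM at 3 d, beside 6.30 CPM in endothelial cells and 7.23 CPM in macrophages. The part of free RNA in the Rspo3 ratios was not tested. Wnt5a was lower in all 3, by 28.1-, 2.29- and 3.06-fold. Sfrp1, within 2-fold over the whole stroma at 1.78 times, was 4.28, 2.42 and 2.13 times higher within the clusters.

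Other genes did not keep the 2-fold in each cluster. Dkk2 was 461-fold lower in cluster 1, from 347 UMIs at 3 d to 4 at 78 w (interval of the ratio 0.000588 to 0.0056). It was 9.44-fold lower in cluster 2 and 1.82-fold lower in cluster 3. Fzd9, 3.835 times higher over the stroma, was 1.70, 2.45 and 1.41 times higher within clusters, and Dkk3 2.41, 2.41 and 1.31 times. Rspo2 was 3.52-, 1.32- and 2.63-fold lower. Frzb was 23.9 times higher in cluster 1, from 3 UMIs at 3 d to 381 at 78 w (interval 8.12 to 116), 3.13 times in cluster 3 and at 0.50 times in cluster 2.

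**Figure D3:**
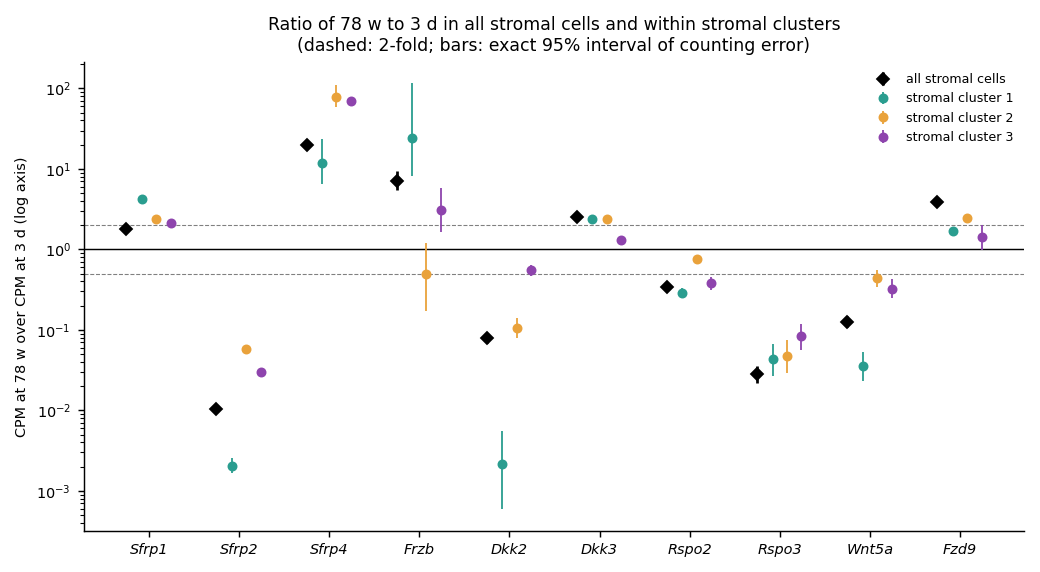
Ratio of CPM at 78 w to CPM at 3 d (log axis) for each gene over all stromal cells (diamonds) and within stromal clusters 1, 2 and 3 (circles), with exact 95% intervals of counting error; dashed lines mark 2-fold. Sfrp2 and Rspo3 lie below the lower line and Sfrp4 above the upper line in all 3 clusters, while Fzd9 passes 2-fold in cluster 2 only.

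The injured library was compared in the same way. Sfrp2 read 652, 1.54, 0.436 and 1.34 CPM at the 4 ages in cluster 1 and 15.9 CPM after injury, 742, 23.4, 22.0 and 43.4 CPM in cluster 2 and 116 CPM after injury, and 2652, 243, 81.2 and 79.7 CPM in cluster 3 and 781 CPM after injury. Within clusters 1, 2 and 3 it was thus 10.3, 4.94 and 3.21 times the 3 w level and 36.5, 5.26 and 9.61 times the 16 w level. The 15.9 CPM of cluster 1 was near the level of other cells of the injured library, 13.3 CPM in endothelial and 15.3 CPM in lining cells. Endothelial cells, which may carry free RNA, read 2.72 CPM at 3 w and 2.11 CPM at 16 w. The part of free RNA in these ratios was not tested. Rspo2 was 1.29, 1.69 and 3.38 times its 3 w level in clusters 1, 2 and 3. Sfrp4 was at 1.00, 0.62 and 0.46 times its 3 w level and at 0.82, 0.38 and 0.31 times its 16 w level, with 37.0 CPM in cluster 3 of the injured library against 80.4 CPM at 3 w and 119 CPM at 16 w.

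At a finer clustering 8 stromal clusters and 1 lining cluster were told apart, and the genes differed in how widely they were spread over them. Cluster 4, led by Pi16, Mfap5, Clec3b and Sfrp2, held between 8.32% and 31.0% of the cells of these clusters and between 51.3% and 74.0% of Sfrp2 UMIs, and it was the cluster highest in Sfrp2 in 5 of 5 libraries. Its Sfrp2 level was 3020 CPM at 3 d, 255 CPM at 3 w, 86.96 CPM at 16 w, 88.1 CPM at 78 w and 864 CPM after injury. Sfrp4 there read 7.28, 83.4, 123, 471 and 39.7 CPM in the same order, which was 44.7% to 63.5% of its UMIs, and cluster 4 was its highest cluster at 16 w and 78 w and the lining cluster in the other 3 libraries. Sfrp1 was highest in the same cluster in 4 of 5 libraries, with 818 CPM at 78 w. Its mean over libraries was 144 to 365 CPM in the other clusters and 510 CPM in cluster 4. Wnt5a was highest there in 4 of 5 as well, with 20.2 CPM at 3 d and 6.22 to 11.0 CPM in the others. Since the clusters were drawn from these same cells, their differences in level are a description.

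Dkk3 and Fzd9 had the opposite placing, low in cluster 4 and highest, as a mean over libraries, in cluster 1. In cluster 4 Dkk3 read 82.2 to 114 CPM, and in cluster 1 it read 120 CPM at 3 d and 272 to 333 CPM in the others. Its mean over libraries was 195 to 264 CPM in clusters 1, 2, 3, 5, 6 and 9. Fzd9 averaged 81.2 CPM over libraries in cluster 1, 68.2 CPM in cluster 9 (led by Ibsp and Col2a1) and 6.67 CPM in cluster 4. It was highest in cluster 1 at 3 w and 16 w, and in cluster 9 at 3 d, 78 w and after injury. Dkk3 was highest in cluster 1 at 3 w, 78 w and after injury. Clusters 1 and 9 held 50 and 33 cells at 3 d. Nearly all Frzb at 78 w came from cluster 9, where 364 UMIs made up 89.7% of the total in 6.50% of the cells. Its level in that cluster was 0 at 3 d, 0.428 CPM at 3 w, 7.71 CPM at 16 w, 38.1 CPM at 78 w and 3.38 CPM after injury.

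Rspo3 at 3 d was spread over clusters 4, 6 (led by Coch, Otor and Igfbp2) and 14 at 35.2, 34.9 and 36.1 CPM. Cluster 14, led by cell-cycle genes, had 678 of its 718 cells from the 3 d library and read 1685 CPM of Sfrp2 there. Rspo2 was highest in the lining cluster in 4 of 5 libraries, averaging 78.0 CPM over the libraries against 29.3 CPM in the next cluster.

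**Figure D4:**
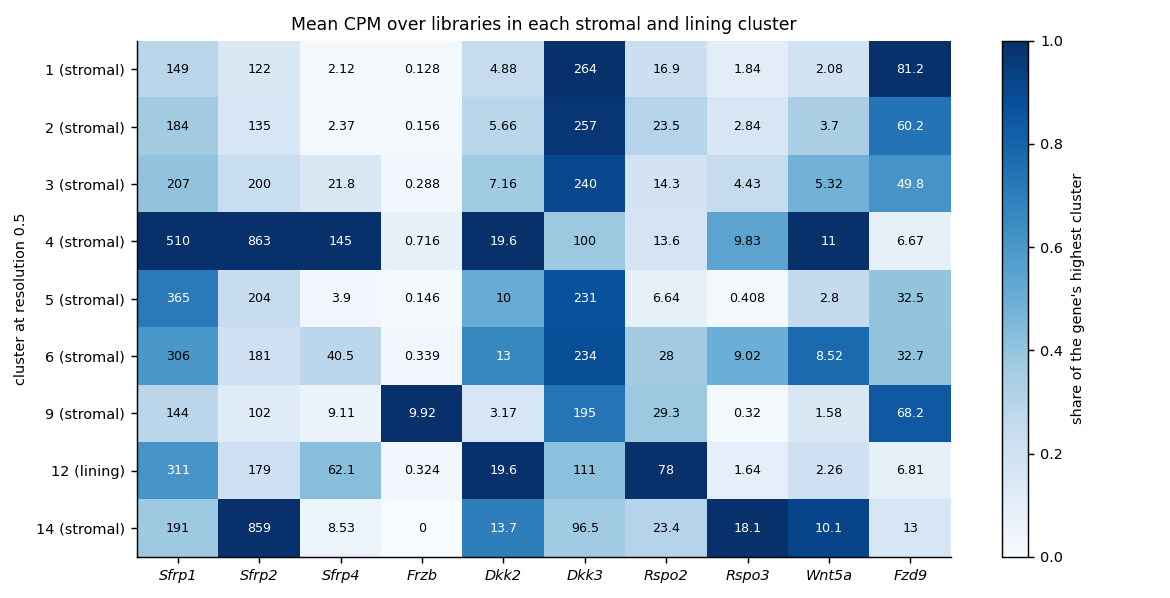
Mean CPM over the libraries with at least 20 cells (numbers in the cells of the map) of each gene in the 8 stromal clusters and the lining cluster of the finer clustering; the colour gives the level as a share of the gene's highest cluster. The means of Sfrp1, Sfrp2, Sfrp4 and Wnt5a peak in cluster 4, those of Dkk3 and Fzd9 in cluster 1, Frzb in cluster 9 and Rspo2 in lining cluster 12.

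Single cells showed the same placing in most comparisons within libraries. In thinned stromal cells with a UMI of Sfrp2, 36.7% held Sfrp1 at 3 w, 32.4% at 16 w, 47.9% at 78 w and 26.7% after injury, against 11.5%, 21.04%, 30.6% and 12.8% of those without. The cells with Sfrp2 numbered 139, 71, 96 and 382, and at 16 w the intervals overlapped (21.8 to 44.5 and 20.1 to 22.0). At 3 d the shares were 22.4% and 16.5%. Of cells with a UMI of Chad, 0.486% held Sfrp2 at 3 w, 0.214% at 16 w, 0.138% at 78 w and 3.41% after injury, against 2.76%, 1.79%, 1.93% and 7.68% of Chad-negative cells. The reverse held for Fzd9, present in 6.32%, 8.65%, 6.13% and 7.87% of Chad-positive and 3.41%, 3.69%, 2.92% and 3.71% of Chad-negative cells. At 3 d, when 98 cells held a Chad UMI, both shares were alike for Fzd9 (1.02% and 1.03%). Those for Sfrp2 at 3 d were 42.9% (32.9 to 53.3) and 50.6% (49.6 to 51.5), with overlapping intervals.

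Lining cells, the fibroblasts that line the joint cavity and make the lubricant encoded by Prg4, differed from the stroma of the same library in several of the 10 genes. Sfrp2 was lower in lining in all 5 libraries, by 2.09-fold at 3 d, by at least 9.47-fold at 3 w (0 UMIs, read as the 3 UMIs that a count of 0 allows), by 4.196-fold at 16 w (4 UMIs), by 13.5-fold at 78 w (6 UMIs) and by 9.04-fold after injury (11 UMIs). Fzd9 was lower by 9.16-fold, at least 18.3-fold (0 UMIs), 3.48-fold, 13.5-fold and 14.2-fold in the same order. Its lining counts were low, at 4, 0, 30, 16 and 3 UMIs, and the interval of the 14.2-fold was 4.84 to 68.7. These 2 genes were the ones of the 10 that were lower by 2-fold in all 5 libraries, beside 1.53% of 14402 genes, and none was higher in all 5, beside 2.23%. Frzb, Dkk2, Rspo3 and Wnt5a had 0 UMIs in 3 w lining and a stromal level too low there for a bound. They could thus not be called in either direction. The 2.09-fold of Sfrp2 at 3 d fell short of 2-fold under 4 other settings, at 0.51 to 0.58 times, whereas Fzd9 passed in all 5 libraries under each.

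Sfrp4 was above stroma in 4 libraries, by 6.03 times at 3 d, 8.79 times at 3 w, 3.92 times at 16 w and 7.28 times after injury, and by 1.25 times at 78 w, when the stromal level was at its highest. With equal weight of the stromal clusters the 16 w ratio of Sfrp4 was 1.34. For Rspo2 the lining to stroma ratio was 0.84 at 3 d (0.666 to 1.05) and 4.33 at 3 w (3.38 to 5.48), then 16.0 at 16 w (13.7 to 18.5), 12.1 at 78 w (10.9 to 13.3) and 1.92 in the injured library (1.30 to 2.76). Dkk3 was lower in lining throughout, between 1.49-fold at 3 d and 4.19-fold at 78 w. Sfrp1 stayed within 2-fold of stroma, at 0.68 to 1.79 times, but not with equal weight of the stromal clusters. It was then at 2.16 times at 3 d and 0.461 times at 3 w. Dkk2 was 3.85 times higher in lining at 3 d (3.44 to 4.31), with 114 CPM from 347 UMIs, and had 0 to 2 UMIs in the lining cells of each other library. Rspo3 in lining was at 0.0683 times the stromal level at 3 d (6 UMIs, interval 0.0251 to 0.149) and at 5.52 times at 78 w (21 UMIs, 3.23 to 9.07), when lining held 21% of its UMIs, and it had 0 UMIs in the lining of the other 3 libraries. Wnt5a had 20 UMIs in lining at 3 d and 0 to 4 elsewhere, and Frzb had at most 1 UMI in any library.

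From 3 d to 78 w, 2 of the 6 genes with enough UMIs in lining were higher (Sfrp4 by 4.16 times, 3.19 to 5.48, and Rspo2) and 2 lower (Sfrp2 by 614-fold, from 2404 to 6 UMIs, and Dkk2 by 266-fold, from 347 to 2 UMIs), beside 8.59% and 8.63% of 7012 genes. Sfrp1 in lining was 480 CPM at 3 d, 104 CPM at 3 w, 382 CPM at 16 w, 325 CPM at 78 w and 162 CPM after injury, which put 3 w and the injured library lowest as in stroma. Dkk3 in lining stood at 172 CPM at 16 w and at 58.2 to 87.4 CPM in the others. Sfrp2 at 3 d read 786 CPM in lining, against 341 to 458 CPM in mural, macrophage and endothelial cells, which may carry free RNA. The part of free RNA in the lining ratio of Sfrp2 was not tested.

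**Figure D5:**
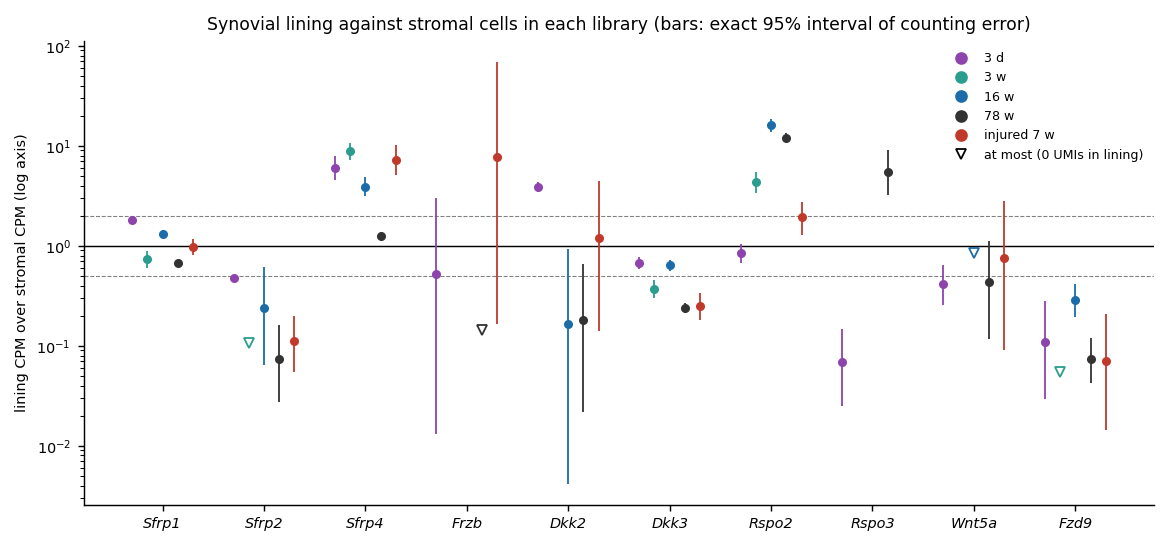
Ratio of the CPM in synovial lining cells to that in stromal cells of the same library (log axis) for each gene and library, with exact 95% intervals of counting error; dashed lines mark 2-fold and open triangles mark upper bounds where lining cells had 0 UMIs. Rspo2 passes from 0.84 at 3 d to 16.0 at 16 w, and Sfrp2 and Fzd9 lie below the lower line in all 5 libraries.

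The 10 genes were set beside 77 others of a list of 87 genes of the Wnt pathway, all of which were in the files. Between 3 d and 78 w, 12 of the 55 tested others were at least 2-fold higher in stroma and 13 lower. Their median log2 ratio was -0.09. Over all genes 14.2% were higher and 21.1% lower, with a median of -0.17. Of the other 4 tested antagonists, Wif1 and Dkk1 were higher and Sostdc1 lower. Dkk1, which binds Lrp6, was higher by 5.10 times (3.54 to 7.53) and Sostdc1, a bone morphogenetic protein and Wnt antagonist, lower by 44.7-fold, from 400 to 8 UMIs.

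Among ligands, Wnt6, Wnt10b and Wnt11 were higher and Wnt5b lower, the first by 5.00 times and the last by 11.4-fold, from 9.84 to 0.866 CPM. Among the other 9 receptors, Fzd5, Fzd8 and Fzd10 were higher and Fzd2, Fzd3 and Fzd6 lower. Fzd10 had 2 UMIs at 3 d (0.0196 CPM) and read 1.11 CPM at 78 w, a ratio of 56.5 (15.2 to 473).

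The R-spondin receptors split. Lgr5 was 114 CPM in stroma at 3 d and 14.9, 17.9, 11.7 and 12.9 CPM in the later libraries, or 9.76-fold lower at 78 w than at 3 d. Lgr6 read 1.08, 3.77, 16.4, 26.7 and 5.59 CPM, 24.8 times higher at 78 w than at 3 d (20.4 to 30.3). Lgr4 read 20.9, 7.90, 8.28 and 9.07 CPM at the 4 ages and 19.1 CPM in the injured library, so that like Rspo2 it was highest at 3 d and next highest after injury.

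Of the targets and the genes of signal transduction, Tcf7 and Myc were higher at 78 w than at 3 d and Bcl9, Pygo1, Ccnd1 and Tnfrsf19 lower, of 6 targets and 16 transduction genes tested. Myc read 48.2 CPM at 3 d and 184 CPM at 78 w, and Ccnd1 30.8 and 8.81 CPM. Axin2, a widely used target gene, read 11.2 CPM at 3 d, 8.43 CPM at 3 w, 21.5 CPM at 16 w, 15.2 CPM at 78 w and 12.3 CPM after injury. Nkd1 read 18.6, 10.9, 18.9, 9.58 and 12.3 CPM, and neither gene passed 2-fold from 3 d to 78 w (1.36 times and 1.94-fold lower). Tcf7, a transcription factor of the pathway, was 7.31 times higher at 78 w (5.73 to 9.43), and Tnfrsf19, a target, 25.9-fold lower. Lrp6 read 113 CPM at 3 d and 170 to 243 CPM in the others, Lrp5 11.2 CPM at 3 d and 19.9 CPM at 78 w, and Ctnnb1, the gene of beta-catenin, 150 to 210 CPM. Nkd2 read 1.00 to 3.70 CPM and Apcdd1, an inhibitor induced by the pathway, 0.197 to 0.349 CPM. Lef1 had 1 to 7 UMIs in any stroma, too few for a ratio.

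In the injured library 2 of 52 other tested genes were higher than in both 3 w and 16 w (Lgr4 and Ccnd1). Lower than in both were 4 (Wnt4, Wnt6, Wif1 and Dvl3). The shares over all genes were 3.77% and 8.04%. Between lining and stroma, Fzd6 was higher in lining in all 5 libraries and Fzd8, Lrp6, Lgr5 and Wif1 lower, of 57 tested. For that comparison the shares over all genes were 2.23% and 1.53%.

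The genes most like each of the 10 were taken from Pearson correlations of log2 (CPM + 10) over 76 sums, 1 per fine cluster and library with at least 20 cells, among 12744 genes. The 76 sums come from 5 libraries and share their depth, so the r values only describe them. The sums cover all 18 fine clusters, endothelial, mural, macrophage and muscle ones among them, and not the stroma alone. The part of differences between cell types in the r values was not tested. Sfrp2 was most like Gpc3 (r 0.92), which encodes a heparan sulfate proteoglycan, the growth factor gene Mdk (0.91) and its own antisense neighbour Gm26771 (0.91). Wnt5a was most like Jph4 (0.85), Gpc3 (0.79) and Ptprd (0.78), so that Gpc3 stood in both lists. Dkk3 was most like Abi3bp (0.93), Plod2 (0.93) and Bgn (0.91). Fzd9 was most like Smoc1 (0.84), 1500015O10Rik (0.83) and Scx (0.83), the last a tendon transcription factor. Frzb was most like Fxyd3 (0.77), Scube1 (0.66) and Col10a1 (0.76), the hypertrophic cartilage collagen. Sfrp4 was most like Serping1 (0.81), Inmt (0.80) and the hyaluronan synthase gene Has1 (0.79), and Sfrp1 like Lpar1 (0.86), Evc2 (0.84) and Ank2 (0.82). Rspo3 was most like Mpped2, Ly6h and Mmp16 (0.83 each), Rspo2 like Mrc2 (0.76), B3gnt9 (0.75) and Tmed3 (0.75), and Dkk2 like St3gal4 (0.77), Tspan9 (0.74) and Lpar4 (0.74). Among the 10 themselves, Dkk3 with Fzd9 (0.78) and Sfrp2 with Wnt5a (0.75) were the closest pairs, and Dkk2 with Fzd9 and Dkk2 with Dkk3 (-0.34 each) the farthest apart.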

How the data were processed

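Discs were digested with Pronase and Collagenase P, and cells were captured with droplet 3′ chemistry. The deposited matrices hold raw counts, UMIs per gene and cell, that the authors made by alignment to mm10 with Cell Ranger (3.1 in the submitters' notes, 4.0.0 in the matrix headers), and no normalization had been applied. Of 51948 barcodes, the 51688 with over 200 UMIs and a mitochondrial share of 30% or less were used, and total UMIs per library were 31585993 to 125427849. Libraries were integrated and clustered with Seurat 5.3.0 in R 4.3.3 (2000 features, 30 dimensions, resolution 0.2, and 0.5 for the finer clusters), leaving the 87 Wnt pathway genes out of the features. Clusters were named from fixed marker lists, and no doublets were removed. UMIs were summed per class and library with Python 3.11.15, numpy 2.4.6, scipy 1.17.1 and pandas 2.3.3, and divided by the class total (CPM). Ratios carry exact conditional 95% intervals, and levels exact Poisson intervals. With 0 UMIs in one class a bound was computed from 3 UMIs. The ratio code was checked on simulated data.

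The genes and the Wnt pathway list were chosen with earlier results of these data known. Of the list, a fixed set of feedback, co-receptor, R-spondin receptor and signal transduction genes was named. So were the 5 genes with the largest ratio of 78 w to 3 d in each direction, among those with at least 100 UMIs in the higher group. Some other genes past 2-fold were named by role, Myc and Ccnd1 with their levels. Positions are from GENCODE M21, upstream sequences from RefSeq. Proteins were not compared here, because no protein sequences were used.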

Additional observations from a re-analysis of the deposited data

Results flagged for a closer look

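Rspo2 differed between cell classes under the same contrast. From 3 d to 78 w its log2 ratio of CPM was -1.54 in stromal cells and 2.31 in lining cells, lower at the later age in the one class and higher in the other. The difference was not tested, because each age had 1 library, and the 3 d value in lining cells rests on 82 UMIs in 350 cells whose lining markers were lower than in the other libraries.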

How the results depend on the processing

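Each condition had 1 library and the injured library the shallowest cells. Counts under about 100 UMIs thus limit what could be compared, as for Frzb in 4 libraries. In lining cells they do so for Rspo3, Wnt5a and Fzd9, and for Dkk2 after 3 d. Sex cannot be told apart from age in comparisons with 3 d, and the sex of the mice of the injured library was not settled here. Cell make-up was set apart from age or injury only in part, by the within-cluster ratios and equal cluster weights. No paired analysis was possible because each condition had 1 library. No ratio past 2-fold changed direction. Frzb, with 5 UMIs after injury, was at 1.06 times its 3 w level and at 0.49 and 0.36 times it with the mean of single cells and with equal cluster weights, and Sfrp1 at 3 w was at 0.53 times its 3 d level and at 1.02 times it with equal cluster weights. Of 542 values that ratios past 2-fold took under the alternatives, 522 stayed past it. Averaging the CPM of single cells left 1 gene (Dkk2) higher from 3 w to 16 w, because Sfrp1 was at 1.92 times. It also put 1 gene lower after injury, Rspo3, which had 20 UMIs in the injured stroma. Giving the stromal clusters equal weight left 1 gene higher from 3 w to 16 w (Sfrp1 at 1.64 times), put 1 gene lower from 16 w to 78 w (Rspo3) and 2 lower after injury (Sfrp4 and Rspo3), and brought Dkk3 from 3 d to 3 w to 1.70 times, Fzd9 from 3 d to 78 w to 1.93 times and Sfrp1 over the same span to 2.54 times. With genes of any UMI counted, 4 genes were higher in lining at 78 w than at 3 d. Rspo3 and Fzd9 were added from 6 and 4 UMIs, with intervals that included 1 (0.892 to 6.92 and 0.842 to 10.7). Wnt5a was added as lower, by 7.66-fold from 20 to 4 UMIs (2.57 to 30.8). Between lining and stroma, 1 gene (Fzd9) was lower in all 5 libraries under the finer clusters, the mean of single cells, equal cluster weights and clusters drawn with the Wnt genes kept as features, since Sfrp2 at 3 d was then at 0.54, 0.58, 0.58 and 0.51 times. Median-of-ratios scaling shifted the stromal libraries by -0.157 to 0.146 on the log2 scale and brought Rspo2 from 3 d to 3 w to 0.54 times and Sfrp1 from 3 d to 78 w to 2.06 times. The cause of these changes was not tested beyond the alternatives' own construction. The shares over all genes given above are those of the main setting. The counts of genes under the alternatives are thus not set against all genes. Scrublet marked 5 cells as doublets, so leaving out the top 5% of its scores was added after seeing the data, and neither that nor the stricter cell filter moved a ratio across 2-fold. Without integration no 3 d cell fell in the lining cluster, and no lining comparison was made under that setting.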
